A study of Mus musculus with 8 samples.

Results

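Transient receptor potential (TRP) channels are cation channels of the plasma membrane and of organelles that open to temperature, osmotic swelling, stretch, lipids or receptor signalling and let calcium and other cations into the cell. In the brain they serve warmth and osmotic sensing in the hypothalamus, fluid secretion by the choroid plexus, volume control in astrocytes, and slow depolarization of neurons after receptor activation. The genes described here are 9 TRP channel genes, matched by exact symbol among the 21959 genes of the deposited table: Trpv4 and Trpv2 of the vanilloid group, Trpm2, Trpm3 and Trpm7 of the melastatin group, and Trpc1, Trpc4, Trpc5 and Trpc6 of the canonical group. They were chosen by family around Trpv4, which was selected on its log2 fold change and adjusted p in this same contrast, so the differences between the groups are given as a description. All 9 were in the table and all 9 passed the filter on low counts, among 14536 genes tested.

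The study addressed how isoliensinine, a bisbenzylisoquinoline alkaloid of lotus seed, affects sleep in mice. Polyadenylated RNA was sequenced from 4 libraries labelled isoliensinine (IsoL) and 4 labelled PCPA (Model). PCPA is para-chlorophenylalanine, a tryptophan hydroxylase inhibitor that depletes serotonin. All 8 carry the labels wild type and brain. By the series text, the mice were ICR females, treatment lasted 7 days, sodium pentobarbital followed the last dose by 40 minutes, and the hypothalamus was dissected. IsoL was given at 12.5, 25 or 50 mg/kg. Left unsaid are which of these doses was sequenced, whether the IsoL mice also received PCPA, how old the mice were, or whether each library is a separate mouse. The spread between libraries may therefore not be a spread between mice. Mice without treatment or on alprazolam, also part of the design, were not analysed here.

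Summed gene counts were 15731923 to 21620466 in the IsoL libraries and 14262836 to 15886850 in the Model libraries, and 3 counts correspond to 0.139 to 0.191 CPM in IsoL and to 0.189 to 0.210 CPM in Model. CPM is the read count scaled to library depth with TMM normalization. Between 4330 and 6779 counts per library fell on 4 Y-linked genes, which goes against the stated sex. The libraries also differed in regional and cell type markers. The summed CPM of 20 hypothalamic neuron markers was 123 to 228 in the IsoL libraries and 270 to 314 in the Model libraries. Not all of them moved this way. Of the 19 tested, 4 had a positive log2 fold change, against 49.5% of all tested genes. Every IsoL library lay below every Model library in 7, against 4.44% of all tested genes. In 1 every IsoL library lay above, against 4.04%. Transcripts of choroid plexus epithelium, the tissue that secretes cerebrospinal fluid, were abundant in IsoL 1 and IsoL 2. Ttr, the transthyretin gene and its main marker, had 609 and 521 CPM there. IsoL 3 had 44.8 and IsoL 4 had 0.458 CPM of Ttr, against 1.06 to 4.59 CPM in Model. In bulk tissue, a different number of cells of a type and a different amount of RNA per cell cannot be told apart.

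Trpv4 was higher in the IsoL libraries. It encodes a calcium-permeable channel opened by warmth, hypo-osmotic swelling and mechanical stress, known in the brain from choroid plexus epithelium, astrocytes and osmosensitive regions. The gene (ENSMUSG00000014158) lies on chromosome 5 from 114760213 to 114796482 on the minus strand in the deposited table; the sources used here name no genome build for it. Its start region in RefSeq on GRCm38.p6, chr5:114658372-114658671 on the minus strand, runs from 250 bases before the start to 50 after it. By number this window lies outside the deposited span of the gene, so the window and the span cannot be placed on the same coordinates. It is shown because Trpv4 carries the largest difference of the 9 genes. The capitals mark the CG dinucleotides.
Trpv4 start region: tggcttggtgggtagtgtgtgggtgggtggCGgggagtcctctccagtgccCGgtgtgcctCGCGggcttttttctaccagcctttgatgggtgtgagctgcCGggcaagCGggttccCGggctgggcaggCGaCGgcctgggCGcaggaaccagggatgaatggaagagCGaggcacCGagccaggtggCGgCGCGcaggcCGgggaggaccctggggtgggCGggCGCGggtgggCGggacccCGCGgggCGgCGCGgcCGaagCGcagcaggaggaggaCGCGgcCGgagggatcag

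This Trpv4 window holds 30 CG dinucleotides, more than 88.3% of 32851 such windows of mouse genes, whose median is 7. Its G and C content is 73.0%. The other 8 genes have 11 windows, with 2 CG in a window of Trpv2 at the low end and 35 in that of Trpm7 at the high end. The letters TATAAA, searched on both strands, were found in 3 of the 12 windows (a window of Trpv2, and those of Trpm2 and Trpc4) and in 13.62% of all windows. They were not in the Trpv4 window.

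Trpv4 had 71, 63, 35 and 56 counts in IsoL 1 to 4, against 11, 22, 19 and 16 counts in Model 1 to 4. These correspond to 4.36, 3.65, 2.21 and 2.57 CPM in IsoL and to 0.769, 1.38, 1.32 and 1.09 CPM in Model. Every IsoL library lay above every Model library, and IsoL 1 and 2 lay above IsoL 3 and 4. Trpv4 averaged 3.20 ± 0.986 CPM in IsoL and 1.14 ± 0.276 CPM in Model (SD, n = 4 each), a ratio of the means of 2.81. The log2 fold change was 1.48 (SE 0.28, 95% interval 0.87 to 2.08), the value that led to the choice of these genes (edgeR quasi-likelihood test, Benjamini-Hochberg adjusted p = 0.0478, rank 38 of 14536 by p).

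Of the 9 TRP channel genes, 1 passed the threshold of 0.05 as higher and 0 as lower in edgeR, against 0.117% and 0.158% of all tested genes. At an unadjusted p under 0.05 there were 3 of the 9, and 13.2% of all tested genes. Trpv4 lost its call in 7 of the 8 fits that leave out a library. The edgeR adjusted p was 0.155 without IsoL 1, 0.147 without IsoL 2, 0.0519 without IsoL 3, 0.0987 without IsoL 4, 0.0964 without Model 1, 0.0777 without Model 3 and 0.173 without Model 4. Without Model 2 it was 0.0290. The log2 fold change itself stayed between 1.30 and 1.61 in these fits.

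**Figure D1:**
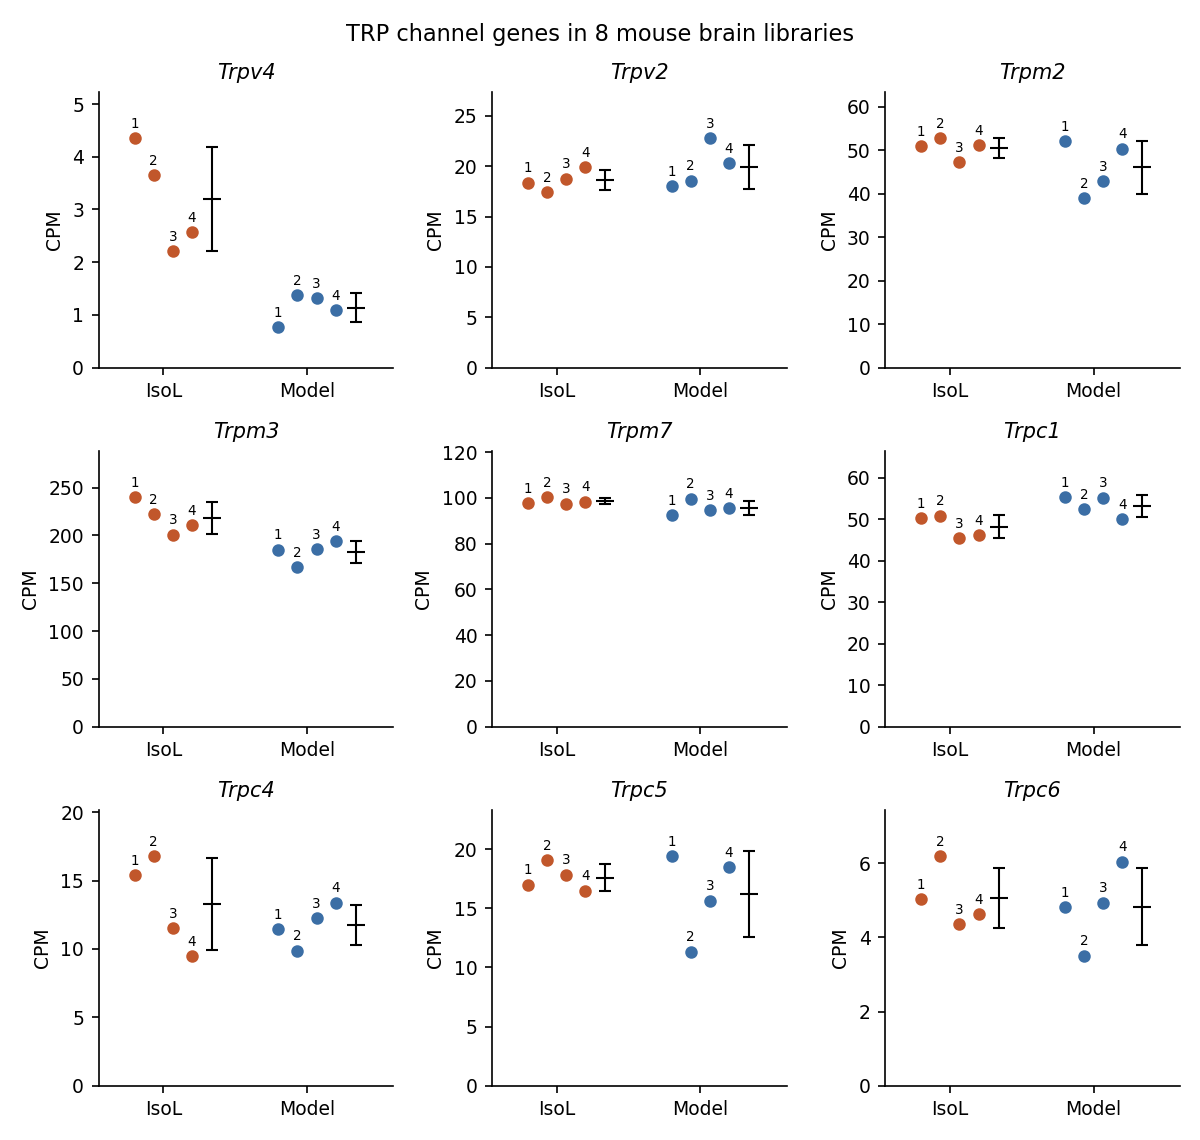
CPM of the 9 TRP channel genes in each library, with IsoL on the left (orange) and Model on the right (blue) of each panel; numbers are library numbers and the black marks are the mean ± SD of 4 libraries. Trpv4 (2.21 to 4.36 CPM in IsoL, 0.769 to 1.38 CPM in Model) and Trpm3 do not overlap between the groups, whereas the other 7 genes do.

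The IsoL libraries with the highest Trpv4 levels were also those with the most choroid plexus RNA. The summed CPM of 20 choroid plexus markers was 1850, 1630, 582 and 514 in IsoL 1 to 4, against 416 to 501 in the 4 Model libraries. Folr1, a folate receptor gene of this epithelium, had 7.85, 7.07, 1.77 and 0.779 CPM in IsoL 1 to 4, against 0.280 to 0.695 CPM in Model. Of the 20 markers, 16 were tested and 0 passed in edgeR or limma voom, while 8 passed as higher in DESeq2. At an unadjusted p under 0.05 in edgeR there were 10, against 13.2% of all tested genes. Their median log2 fold change was 1.36, against -0.00146 over all tested genes. No marker was at 0 in all libraries. The part of these transcripts in the size of the Trpv4 difference was not tested. IsoL 4 had less Ttr (0.458 CPM) than any Model library, a marker sum close to the Model range, and 2.57 CPM of Trpv4, above the highest Model value of 1.38 CPM. Most of that marker sum was Enpp2, at 377 CPM in IsoL 4 and 304 to 344 CPM in Model. In 5 of the 16 tested markers, Folr1 and Enpp2 among them, every IsoL library lay above every Model library, IsoL 4 included. Over all tested genes the share was 4.04%, and 0 of the markers had every IsoL library below. With IsoL 1 and IsoL 2 left out, a comparison chosen after seeing the data, the log2 fold change of Trpv4 was 1.07 (SE 0.31) and did not pass (edgeR adjusted p = 0.328).

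**Figure D2:**
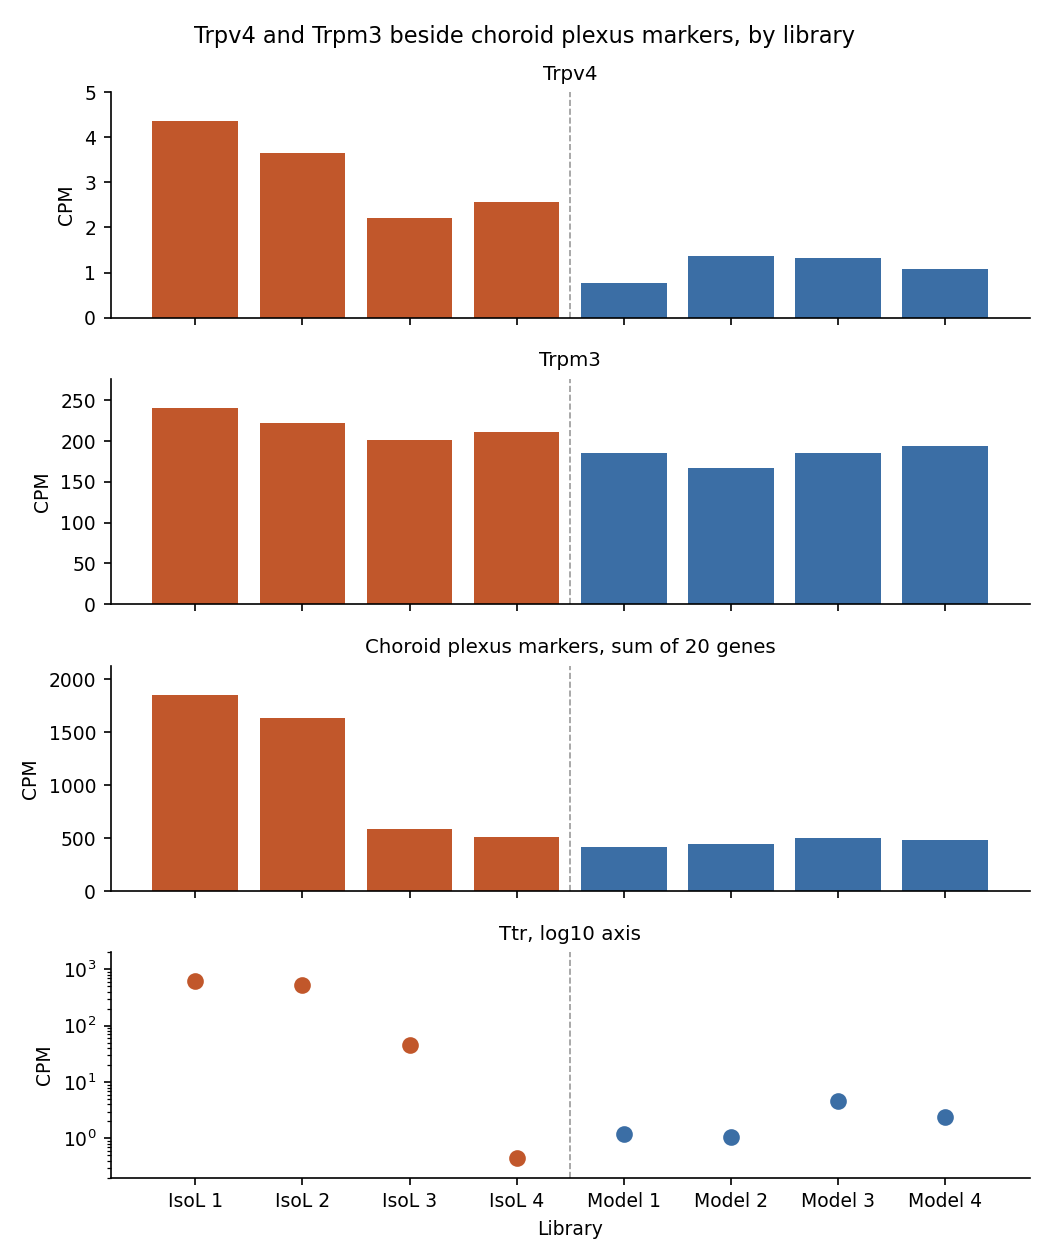
CPM by library, IsoL left and Model right of the dashed line, of Trpv4, Trpm3, the sum of 20 choroid plexus markers and Ttr (the last on a log10 axis). IsoL 1 and 2 are highest in all 4 panels, while IsoL 4 has 0.458 CPM of Ttr and 2.57 CPM of Trpv4.

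Other tissue markers moved with the groups as well, and their part in the Trpv4 difference was not tested. The summed CPM of 12 astrocyte markers was 4762 to 4862 in IsoL and 4073 to 4564 in Model, without overlap. Slc1a2 was the largest part of that sum, averaging 2195 CPM in IsoL and 1923 CPM in Model. Every IsoL library lay above every Model library in 3 of the 12 (Slc1a2, Aqp4 and Slc4a4), against 4.04% of all tested genes. The others overlapped. The log2 fold change was positive in 11, against 49.5% of all tested genes, and negative in Gjb6 (-0.20). The sum of 10 dorsal midbrain neuron markers was 59.3 to 87.7 CPM in IsoL and 34.5 to 53.0 CPM in Model. Otx2 counts both in this sum and in that of the choroid plexus markers. In that list, written with their changes known, 3 genes (Dmbx1, Tfap2d and Mab21l2) passed as higher in edgeR. That count was 0 without IsoL 2, 3 or 4 and without Model 1 or 4, and 1 without IsoL 1 or Model 3. Sums for ependymal cells and tanycytes (126 to 147 CPM in IsoL, 121 to 141 in Model), for endothelial and mural cells (608 to 703 and 624 to 692 CPM) and for meningeal fibroblasts (118 to 181 and 52.8 to 261 CPM) overlapped between the groups. In edgeR 0 genes passed among the 12 astrocyte markers (3 at an unadjusted p under 0.05, 2 higher in DESeq2, 1 in limma voom). Among the ependymal, microglial, endothelial, meningeal and cortical and hippocampal lists, 0 passed in edgeR, DESeq2 or limma voom. Of their 10, 12, 13, 10 and 11 tested genes, 1, 4, 0, 0 and 1 had an unadjusted p under 0.05 in edgeR. Over all tested genes that share was 13.2%. Of the hypothalamic list, Pmch, the melanin-concentrating hormone gene, passed as lower in edgeR (log2 fold change -0.89, adjusted p = 0.0471). In edgeR 0 of that list passed in 7 of the 8 fits that leave out a library, all but the one without IsoL 3. DESeq2 called 7 of the list lower and limma voom 3.

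The tested genes whose library pattern was nearest to that of Trpv4 were Lbp, Lrrc10b, Gata3, Abca4 and Ano3. Nearness is the root mean square difference, over the 8 libraries, between the centred log2 CPM of each gene and that of Trpv4. It was 0.26 for Lbp, 0.28 for Lrrc10b, 0.30 for Gata3 and Abca4, and 0.32 for Ano3, against a median of 0.78 over all tested genes. The 5 were taken as the smallest values, so lying below the median follows from that choice. Because centring is over all 8 libraries, nearness includes the difference between the groups by which Trpv4 was selected. It therefore does not show a shared pattern within the groups. Lbp, which encodes lipopolysaccharide binding protein, had 15.6, 15.8, 10.4 and 8.57 CPM in IsoL 1 to 4, against 2.87, 4.69, 7.37 and 5.70 CPM in Model 1 to 4. Gata3, a zinc finger transcription factor gene and a member of the list of dorsal midbrain neuron markers, averaged 5.99 CPM in IsoL and 2.95 CPM in Model. Of the other 8 TRP channel genes, Trpm3 was the nearest to Trpv4, at 0.64 and rank 589. The remaining 7 lay between 0.68 (Trpc4) and 0.82 (Trpc1).

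Trpv2 (ENSMUSG00000018507, chromosome 11, 62465312 to 62491341, plus strand) encodes a channel opened by strong heat and membrane stretch in rodents, found in neurons and in macrophages. It had 18.3, 17.4, 18.8 and 19.9 CPM in IsoL 1 to 4, against 18.0, 18.6, 22.8 and 20.3 CPM in Model 1 to 4. The groups overlapped, with Model 3 highest of all libraries. Trpv2 averaged 18.6 ± 1.01 CPM in IsoL and 19.9 ± 2.15 CPM in Model (SD, n = 4 each), and the log2 fold change was -0.10 (95% interval -0.29 to 0.10). It did not pass in edgeR (adjusted p = 0.686), and the log2 fold change was -0.02 without Model 3. Per kilobase, Trpv2 was more abundant than Trpv4 in every library.

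Trpm3 (ENSMUSG00000052387, chromosome 19, 22116410 to 22972774, plus strand) had the next largest positive difference after Trpv4. It encodes a channel opened by heat and by the neurosteroid pregnenolone sulfate, and is abundant in choroid plexus. Trpm3 had 240.3, 222, 201 and 211 CPM in IsoL 1 to 4, against 185, 167, 186 and 194 CPM in Model 1 to 4. Every IsoL library lay above every Model library, and IsoL 1 and 2 were again the highest. The means were 219 ± 16.9 CPM in IsoL and 183 ± 11.6 CPM in Model (SD, n = 4 each), with a log2 fold change of 0.26 (SE 0.06, 95% interval 0.12 to 0.39). The adjusted p was 0.103 in edgeR and 0.0935 in limma voom, both above the threshold, but 0.0138 in DESeq2. The edgeR adjusted p ran from 0.0739 to 0.260 with each library left out in turn. With IsoL 3 and 4 alone against Model the log2 fold change was 0.17 (edgeR adjusted p = 0.527). Trpv4 and Trpm3 were the 2 of 9 genes in which every IsoL library lay above every Model library, a pattern found in 4.04% of all tested genes. In none of the 9 did every IsoL library lie below, against 4.44% of all tested genes.

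Trpm2 (ENSMUSG00000009292, chromosome 10, 77743556 to 77806397, minus strand) encodes a channel gated by ADP-ribose and oxidative stress, which in mice responds to warmth in preoptic hypothalamic neurons and is also present in microglia. It had 51.0, 52.8, 47.2 and 51.2 CPM in IsoL 1 to 4, against 52.1, 39.0, 42.9 and 50.4 CPM in Model 1 to 4. The groups overlapped, and Model 2 was the lowest library. Its log2 fold change was 0.14 (95% interval -0.05 to 0.32), and 0.06 without Model 2. The summed CPM of 12 microglia and macrophage markers was also lowest in Model 2, at 238, against 264 to 319 in the IsoL libraries and 269 to 274 in the other Model libraries. Within that list, Fcrls (12.6 CPM) and Tmem119 (17.8 CPM) were instead highest in Model 2 among the Model libraries. Model 2 stood apart across genes in general. Its chi-square per degree of freedom was 10.9 to 15.2 with each other library, and at most 9.75 between the others. The part of either in the Trpm2 values was not tested.

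Trpm7 (ENSMUSG00000027365, chromosome 2, 126633485 to 126718150, minus strand) encodes a magnesium- and calcium-permeable channel joined to a protein kinase domain in the same polypeptide. It had the smallest spread of the 9, with 97.7, 100.4, 97.4 and 98.4 CPM in IsoL 1 to 4, against 92.4, 99.6, 94.7 and 95.4 CPM in Model 1 to 4. The biological coefficient of variation fitted for Trpm7 was 5.22%, against 22.5% for Trpv4 and a median of 8.45% over all tested genes. The log2 fold change was 0.04, and its 95% interval of -0.05 to 0.14 was the narrowest of the 9.

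The canonical genes encode receptor-operated channels downstream of Gq and phospholipase C. Trpc1 (ENSMUSG00000032839, chromosome 9, 95587135 to 95632428, minus strand), a subunit that joins other TRPC proteins and store-operated channel complexes, was one of 2 genes with a negative log2 fold change, beside Trpv2. It had 50.2, 50.8, 45.5 and 46.2 CPM in IsoL 1 to 4, against 55.4, 52.3, 55.1 and 50.0 CPM in Model 1 to 4. The groups overlapped only through Model 4, which lay below IsoL 1 and IsoL 2. The log2 fold change of -0.14 (95% interval -0.27 to -0.01) did not pass in edgeR (adjusted p = 0.325).

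Trpc4 (ENSMUSG00000027748, chromosome 3, 54063456 to 54225892, plus strand) and Trpc5 (ENSMUSG00000041710, chromosome X, 143164667 to 143471176, minus strand) encode closely related channels, which in rodents are found in the septum, hippocampus, amygdala and hypothalamus, and Trpc5 acts in leptin-responsive hypothalamic neurons of mice. Trpc4 had 15.4, 16.8, 11.5 and 9.48 CPM in IsoL 1 to 4, against 11.5, 9.88, 12.2 and 13.4 CPM in Model 1 to 4. IsoL 1 and 2 lay above every Model library and IsoL 4 below every one. The log2 fold change of Trpc4 was 0.18 over all libraries (95% interval -0.20 to 0.55) and -0.17 with IsoL 3 and 4 alone against Model, so that its direction turned. The summed CPM of 12 cortical and hippocampal excitatory neuron markers split the libraries in the same way, with 518 and 512 in IsoL 1 and 2, 364 and 340 in IsoL 3 and 4, and 358 to 414 in Model; its part in the Trpc4 values was not tested. Trpc5 had 17.0, 19.1, 17.8 and 16.5 CPM in IsoL 1 to 4, against 19.4, 11.3, 15.6 and 18.5 CPM in Model 1 to 4. The groups overlapped, with Model 2 lowest. The log2 fold change of Trpc5 was 0.12 (95% interval -0.18 to 0.42), and -0.02 without Model 2. Trpc5os, annotated on the opposite strand within Trpc5, had at most 2 counts in a library, while reads of the strands cannot be separated here.

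Trpc6 (ENSMUSG00000031997, chromosome 9, 8544143 to 8680742, plus strand) encodes a channel opened by diacylglycerol. It had 5.03, 6.20, 4.36 and 4.63 CPM in IsoL 1 to 4, against 4.82, 3.50, 4.94 and 6.04 CPM in Model 1 to 4. The groups overlapped, with Model 2 below every IsoL library. Its log2 fold change was 0.07 (95% interval -0.32 to 0.46) and turned to -0.04 without IsoL 2 and to -0.06 without Model 2. For the 8 genes other than Trpv4, the edgeR adjusted p ran from 0.103 (Trpm3) to 0.904 (Trpc6). Over all 9 genes, 7 had a positive log2 fold change and the median was 0.12, against -0.00146 and 49.5% positive over all tested genes.

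**Figure D3:**
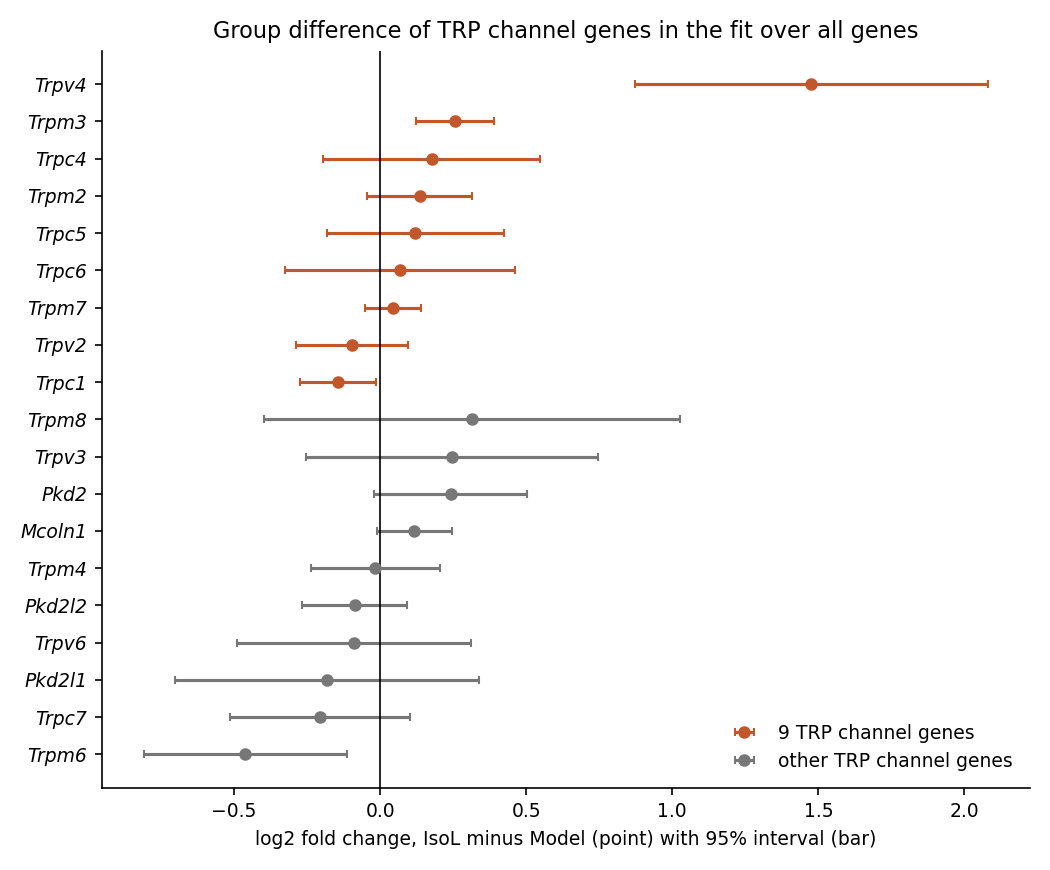
Log2 fold change, IsoL minus Model, with its 95% interval, for the 9 TRP channel genes (orange, above) and for 10 of the 11 other TRP channel genes tested (grey, below). The interval of Trpv4 lies at 0.87 to 2.08, that of Trpm3 at 0.12 to 0.39, and those of all others drawn except Trpc1 and Trpm6 include 0.

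Levels per kilobase, in the authors' deposited FPKM, placed Trpm3 and Trpm7 at the top and Trpv4 at the bottom in both groups. In the IsoL libraries Trpm3 averaged 8.95 ± 0.644 FPKM and Trpm7 8.71 ± 0.102, with overlapping ranges. Trpc1 followed at 6.003 ± 0.299, Trpv2 at 4.16 ± 0.256, Trpm2 at 4.06 ± 0.177, Trpc5 at 3.51 ± 0.208, Trpc4 at 1.66 ± 0.410, Trpc6 at 0.998 ± 0.154 and Trpv4 at 0.784 ± 0.237 FPKM (SD, n = 4). Neighbouring ranges overlapped for Trpv2 and Trpm2, for Trpc4 and Trpc6, and for Trpc6 and Trpv4.

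In the Model libraries the order was the same apart from the top pair, with Trpm7 at 8.43 ± 0.342 FPKM above Trpm3 at 7.47 ± 0.454 in every library. Trpc1 averaged 6.62 ± 0.312 FPKM, and its range overlapped that of Trpm3. Trpc6 averaged 0.951 ± 0.203 and Trpv4 0.279 ± 0.0705 FPKM, without overlap (SD, n = 4). Thus Trpv4 lay below Trpc6 in every Model library. In the IsoL group, the Trpc6 range was 0.866 to 1.22 FPKM. Trpv4 reached into it in IsoL 1 (1.06 FPKM) and IsoL 2 (0.890), and lay below it in IsoL 3 (0.546) and IsoL 4 (0.635). Trpv4 in IsoL stood above 41.6% of the genes in the table by mean FPKM, and in Model above 35.0%, while Trpm7 stood above 75.4% and 74.8% in the same order of groups.

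**Figure D4:**
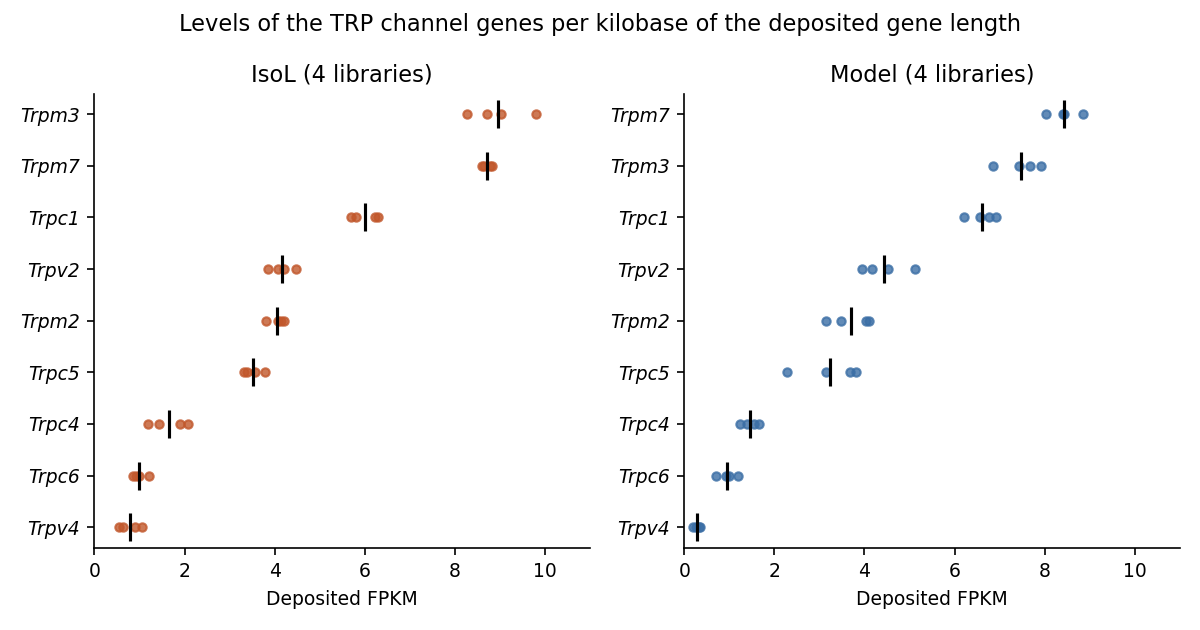
Deposited FPKM of the 9 TRP channel genes in the 4 IsoL libraries (left) and the 4 Model libraries (right), genes ordered by their mean (black bar) within each group. Trpm3 and Trpm7 lie at 7.47 to 8.95 FPKM on average in both groups, and Trpv4 is lowest at 0.784 FPKM in IsoL and 0.279 FPKM in Model.

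A list of 19 further TRP channel genes, with the mucolipin and polycystin groups, held 11 that were tested. In edgeR, DESeq2 and limma voom 0 of them passed in either direction. At an unadjusted p under 0.05 in edgeR there was 1, against 13.2% of all tested genes. A positive log2 fold change was found in 4, against 49.5% of all tested genes, and the median was -0.09. Among the most abundant per kilobase were Mcoln1, a lysosomal channel gene (7.53 ± 0.228 FPKM in IsoL, 6.93 ± 0.477 in Model), Pkd2l2 (5.47 ± 0.441 and 5.79 ± 0.597 FPKM) and Pkd2, a channel gene of primary cilia (5.87 ± 1.09 and 4.96 ± 0.335 FPKM). Trpm6, a kinase-bearing relative of Trpm7, was named after its values were seen. It had a log2 fold change of -0.46 (95% interval -0.81 to -0.11, edgeR adjusted p = 0.247). Trpc2 and Trpv5 had 0 counts in all 8 libraries, which allows up to 3 counts in each.

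Among 20 genes of Gq, phospholipase C and store-operated calcium entry, which act upstream of TRPC channels, 0 passed in edgeR, DESeq2 or limma voom. At an unadjusted p under 0.05 in edgeR there were 3, against 13.2% of all tested genes. A positive log2 fold change was found in 12, against 49.5% of all tested genes (median 0.05). The smallest p belonged to Itpr2, an inositol trisphosphate receptor gene, at 37.9 ± 1.61 CPM in IsoL and 32.6 ± 1.94 CPM in Model (log2 fold change 0.22, edgeR adjusted p = 0.175). Stim1, the calcium sensor of the endoplasmic reticulum, was at 91.1 ± 1.71 CPM in IsoL and 84.0 ± 4.05 CPM in Model (log2 fold change 0.12, edgeR adjusted p = 0.325).

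Of 26 genes for partners of TRPV4 and cell volume control, 22 were tested and 0 passed in edgeR or limma voom. DESeq2 called 4 higher. At an unadjusted p under 0.05 in edgeR there were 7, against 13.2% of all tested genes. The log2 fold change was positive in 18, against 49.5% of all tested genes, with a median of 0.09. Slc12a4, a potassium-chloride cotransporter gene, was at 21.2 ± 1.47 CPM in IsoL and 16.3 ± 1.25 CPM in Model (log2 fold change 0.38, edgeR adjusted p = 0.0864). Aqp4, the water channel of astrocyte endfeet, was at 340 ± 22.8 CPM in IsoL and 288 ± 21.1 CPM in Model (log2 fold change 0.24, edgeR adjusted p = 0.116). In each of these genes every IsoL library lay above every Model library. This pattern was found in 5 of the 22 tested genes of the list and in 4.04% of all tested genes.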

How the data were processed

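RNA from 8 mouse brain libraries was counted per gene. The submitters' processing notes name fastp 0.22.0, HISAT2 2.1.0 and HTSeq 0.9.1; build and annotation are missing from the sources used here, and no strand marking is stated. The deposited read counts are raw counts per gene, per the file headers. The deposited FPKM values matched counts scaled by deposited gene length and by summed counts (largest relative difference 1.11e-09, genes over 200 counts) and were used to order levels between genes. The gene length is the third deposited unit.

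Groups came from the sample labels. Counts were filtered with filterByExpr, scaled with TMM and tested over all genes in edgeR 4.0.16 (R 4.3.3), robust quasi-likelihood F-test, Benjamini-Hochberg threshold 0.05. The SE is the absolute log2 fold change over the square root of F. Log2 CPM used a prior count of 2. DESeq2 1.42.0, limma 3.58.1 (voom with quality weights) and other settings were alternatives. Scripts were tested on simulated data.

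The 9 genes and all lists were chosen with earlier results of these data known. Named were the 9 genes, the 4 other TRP genes with the highest FPKM (1 of them is neither reported nor drawn here), genes passing or else the 2 of smallest p per pathway list, and the 5 genes nearest to Trpv4. Per marker list the plan was to name the 2 of highest CPM; list sums are given instead, and Ttr, Folr1 and other names outside the rule were chosen after their values were seen. A planned comparison of proteins was not made. No pair of libraries was a duplicate (smallest chi-square per degree of freedom 2.52).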

Additional observations from a re-analysis of the deposited data

Results flagged for a closer look

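The summed CPM of 12 microglia and macrophage markers was 238 in Model 2, against 269 to 274 in the other 3 Model libraries, with 264 to 319 in IsoL. The gap of Model 2 to its nearest neighbour was 0.863 of the range of the Model group, past Dixon's 95% critical value for 4 samples. It was the only such value among 36 groups of values checked (the 9 TRP channel genes and 9 marker sums in each group), and chance gives about 1 such value in 20 groups.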

How the results depend on the processing

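Trpv4 was higher in IsoL in all 14 alternative fits. It passed with no filter on low counts, in DESeq2, in limma voom and without Model 2, and missed the threshold in the others. Its log2 fold change was 1.48 with DESeq2 size factors (adjusted p = 0.0505), 1.45 with the replicate block (0.0775), 1.07 with IsoL 3 and 4 only, and 1.30 to 1.61 with each library left out; the cause was not tested. The 9 genes held 2 calls in DESeq2, 0 with DESeq2 size factors, 0 with the replicate block, 0 with IsoL 3 and 4 only, and 0 to 1 with a library left out, against 1 as reported. Of all genes, 40 passed as reported, 74 without the filter, 17 with the replicate block, 312 in DESeq2, 175 in limma voom, 138 at a threshold of 0.10, and 6 (without IsoL 2 or Model 4) to 146 (without Model 2) with a library left out. The labels state no pairing, so the numbers were not taken as pairs. Same-numbered libraries deviated together only weakly (r across genes 0.0199 to 0.0696). For differently numbered libraries r ran from -0.139 to 0.143. With the block, 0 dorsal midbrain and 0 hypothalamic markers passed. Among 112 values of the other 8 genes, 106 kept their sign. The exceptions were 1 of Trpc4 (-0.17 with IsoL 3 and 4 only), 1 of Trpc5 (-0.02 without Model 2) and 4 of Trpc6 (-0.10 to -0.04). In IsoL, 0 to 2 genes changed rank by FPKM when a library was left out, and 0 in Model. Depth limits Trpv4, at 11 to 71 counts per library.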
